A study of Mus musculus with 30 samples.

Results

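The 7 genes *Otx2*, *Pou3f1*, *Zic2*, *Zic5*, *Lin28a*, *Lin28b* and *Grhl2* encode transcription factors and RNA-binding proteins that are used as regulators of the formative state of pluripotency. They were chosen by name and are 7 of the 22477 genes in the RNA-seq table. The cells were mouse secondary iPSCs with OSKM transgenes (*Oct4*, *Sox2*, *Klf4* and *cMyc*) that doxycycline (dox) switches on, GFP in place of a *Nanog* allele and a constitutive nuclear RFP, all of which every condition shared. The 30 samples formed 15 conditions of 2 replicates. In 7 conditions the cells were collected 0, 24, 36, 48, 60, 72 or 96 h after 2i/LIF was withdrawn in N2B27 medium. In the other 8 conditions, cells withdrawn for 0, 24, 48 or 96 h were re-seeded in serum/LIF for 48 h, either without OSKM induction (–dox) or with 2 µg/ml dox (+dox). The cells had been kept on CF1 mouse embryonic fibroblast feeders. For its colony assay the study put cells on gelatin for withdrawal and back on these feeders for re-seeding, and for the RNA-seq cells its methods name no substrate.

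Formative pluripotency is the state between the naive state, which 2i/LIF holds and which resembles the preimplantation epiblast, and the primed state of the later epiblast. OTX2 is a homeobox factor that moves OCT4 to new enhancers as the naive state is left, and POU3F1 (also OCT6) is a POU factor of the same phase. ZIC2 and ZIC5 are zinc finger factors, and GRHL2 is a grainyhead factor that holds enhancers of epithelial genes open. LIN28A and LIN28B bind the precursors of the let-7 microRNAs and block their maturation, and let-7 in turn represses the *Lin28* transcripts.

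The deposited value of a gene in a condition is an FPKM, the fragments per kilobase of transcript scaled for the size of the library. The sources used here do not give how that scaling was done. The authors combined both replicates into this value. With 1 value per condition no difference could be tested, and no value here carries a spread. A gene was called higher or lower when its plain ratio between 2 conditions was at least 2-fold and the higher value was at least 1 FPKM. The share of all genes called in the same comparison is given beside each count of the 7 genes under this rule.

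For 4 of the 7 genes, RefSeq start sites on GRCm38.p6 gave the 250 bases before the start, 7 windows in all. These windows are shown for *Zic5*, *Lin28a*, *Lin28b* and the most downstream of 4 *Otx2* starts, because the series switches on OSKM, whose factors bind short DNA motifs. Capitals mark matches, on either strand, to the 6 motifs that were searched. Of the 4 *Otx2* windows, the one shown held the most matches. The *Lin28b* window and all 4 *Otx2* windows lie inside the Gencode gene spans given below. The RNA values do not show which start was used in these cells. The *Otx2* window lies at chr14:48662735-48662984, that of *Zic5* at chr14:122465659-122465908, that of *Lin28a* at chr4:134018817-134019066 and that of *Lin28b* at chr10:45470202-45470451, all on the minus strand.
Otx2, start 4: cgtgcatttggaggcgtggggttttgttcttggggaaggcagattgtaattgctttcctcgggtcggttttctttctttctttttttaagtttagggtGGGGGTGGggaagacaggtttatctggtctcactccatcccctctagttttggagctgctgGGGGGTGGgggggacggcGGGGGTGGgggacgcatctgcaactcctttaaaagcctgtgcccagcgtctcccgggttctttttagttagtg
Zic5: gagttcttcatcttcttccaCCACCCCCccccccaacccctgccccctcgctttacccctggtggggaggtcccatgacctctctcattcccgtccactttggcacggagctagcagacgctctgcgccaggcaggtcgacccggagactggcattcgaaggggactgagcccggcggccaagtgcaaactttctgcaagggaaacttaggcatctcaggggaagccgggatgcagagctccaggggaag
Lin28a: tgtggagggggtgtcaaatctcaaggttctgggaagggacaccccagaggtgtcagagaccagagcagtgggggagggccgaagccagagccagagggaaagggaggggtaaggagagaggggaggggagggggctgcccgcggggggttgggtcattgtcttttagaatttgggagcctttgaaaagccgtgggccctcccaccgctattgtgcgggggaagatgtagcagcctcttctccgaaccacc
Lin28b: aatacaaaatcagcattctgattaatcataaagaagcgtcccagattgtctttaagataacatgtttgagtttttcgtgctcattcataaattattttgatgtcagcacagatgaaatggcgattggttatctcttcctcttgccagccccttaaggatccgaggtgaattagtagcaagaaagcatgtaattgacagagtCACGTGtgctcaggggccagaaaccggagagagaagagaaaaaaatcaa

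The motifs, none of which contains another, were the octamer ATGCAAAT, the Sox core ATTGTT, the Klf box GGGNGTGG, the Myc E-box CACGTG, the Otx site TAATCC and the grainyhead site AACCNGTT. Of 32851 promoter windows of the same length, 1.60% held the octamer, 9.42% the Sox core, 15.9% the Klf box, 6.02% the E-box, 6.25% the Otx site and 1.79% the grainyhead site. The *Otx2* window of start 4 held 3 Klf boxes, which began 152, 91 and 73 bases before the start. The *Zic5* window held 1 on the other strand, 230 bases before the start. The *Lin28b* window held 1 E-box, 49 bases before the start, and that of *Otx2* start 3 held an Otx site, 211 bases before the start. No match to the 6 motifs lay in the *Lin28a* window or in the first 2 *Otx2* windows. Bases G and C made up 62.4% of the *Zic5* window and 61.2% of the *Lin28a* window, against 39.2% in *Lin28b* and between 42.0% and 53.6% in *Otx2*, where the median of all windows was 52.4%. A match says only that these letters lie in the window, and the RNA values do not show whether a factor bound there.

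The let-7 microRNAs and their sites in the *Lin28* transcripts are shown because the 2 genes stand in a loop with let-7. Of 11 mature let-7 and miR-98 names in the RefSeq table, 10 share the seed GAGGUAG (bases 2 to 8, in capitals), and let-7j has GAGGUAU.
mmu-let-7a-5p: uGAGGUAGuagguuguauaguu
mmu-let-7i-5p: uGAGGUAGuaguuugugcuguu
mmu-let-7j: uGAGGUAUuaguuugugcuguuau
The complement of the shared seed, CTACCTC, occurs in 9.71% of the longest annotated 3′ UTRs of 17047 genes. These have a median of 1019 bases, shorter than those of both *Lin28* genes, and the share was not adjusted for length. The 3′ UTR of *Lin28a* (2775 bases) holds 2 matches, 909 and 1547 bases after the stop codon. That of *Lin28b* (4445 bases) holds 4, at 36, 2410, 2582 and 3998 bases. The other 5 genes have none. Each line below gives the 14 bases before the match, the match in capitals and the base after it.
Lin28a, site 1: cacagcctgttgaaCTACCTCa
Lin28a, site 2: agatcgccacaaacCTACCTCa
Lin28b, site 1: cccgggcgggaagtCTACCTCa
Lin28b, site 2: atacttgttagtaaCTACCTCt
Lin28b, site 3: tttacagcacatggCTACCTCc
Lin28b, site 4: aatgatggcaccgaCTACCTCt
In both *Lin28a* sites and the first *Lin28b* site the match is followed by an A, opposite the first base of the microRNA. Mature microRNAs have no poly(A) tail, and let-7 levels were not analysed here.

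The first comparison followed the genes after 2i/LIF withdrawal. All 7 genes were lowest at 0 h, and all 7 were called higher than at 0 h at each of the 6 later timepoints. The shares of all genes called higher were 8.64%, 11.3%, 12.1%, 13.0%, 15.0% and 16.8% in order of time. The median log2 ratio of the 7 genes to 0 h was 2.26, 2.63 and 2.62 at 24, 48 and 96 h, while over all genes it was -0.01, -0.02 and -0.02. Of 8552 genes with a 2-fold range over withdrawal, 21.7% were lowest at 0 h. The genes differed in when they were highest, at 36 h for *Otx2* and *Grhl2*, 48 h for *Pou3f1* and *Lin28a*, 60 h for *Zic5*, 72 h for *Zic2* and 96 h for *Lin28b*.

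**Figure D1:**
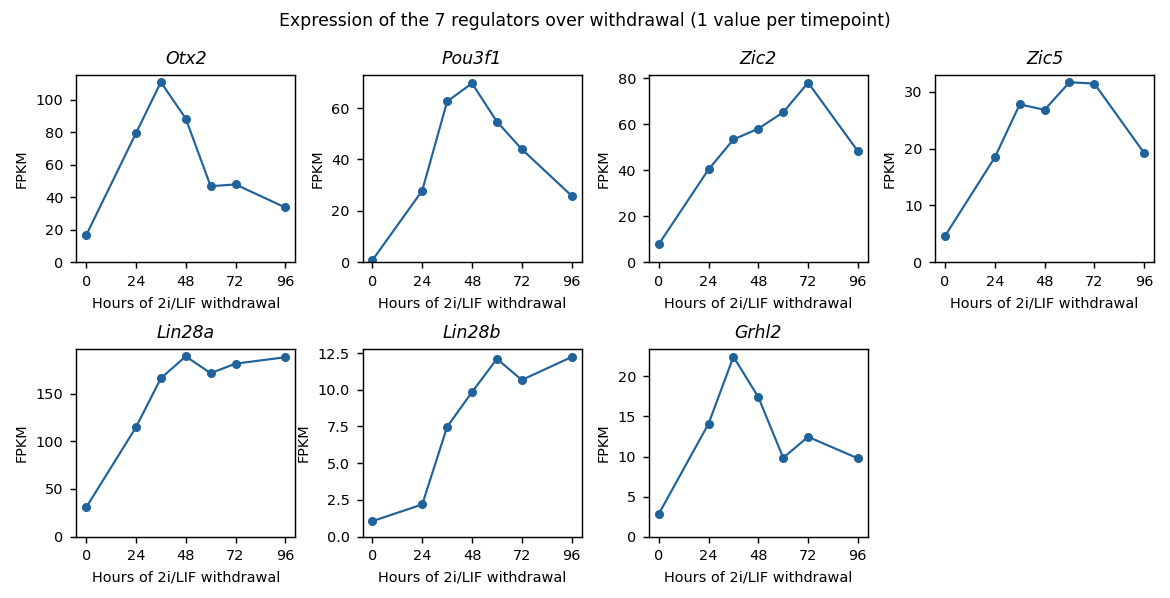
FPKM (vertical axis, from 0) of each of the 7 genes against hours of 2i/LIF withdrawal, with 1 point per timepoint, each the authors' value for 2 replicates. Every gene is lowest at 0 h. *Otx2* and *Grhl2* are highest at 36 h and lie at 30.4% and 43.5% of that level at 96 h, while *Lin28a* at 96 h lies at 99.5% of its highest value.

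*Otx2* (chr14:48657677-48673819, minus strand, Gencode M21 on mm10) was at 16.6, 79.3, 111, 88.4, 46.7, 47.8 and 33.7 FPKM at 0, 24, 36, 48, 60, 72 and 96 h. It was 6.66-fold above 0 h at its highest and still 2.03-fold above it at 96 h, just past the 2-fold limit. *Grhl2* (chr15:37233036-37363569, plus strand) had the same order of high timepoints, with 2.82, 14.1, 22.5, 17.4, 9.84, 12.5 and 9.77 FPKM at 0, 24, 36, 48, 60, 72 and 96 h. Between 48 and 60 h *Otx2* was lower by 1.89-fold and *Grhl2* by 1.77-fold, both short of a call.

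*Pou3f1* (chr4:124656807-124660655, plus strand) had the widest range of the 7 genes. Its values were 0.827, 27.9, 62.6, 69.6, 54.7, 44.0 and 25.9 FPKM at 0, 24, 36, 48, 60, 72 and 96 h. The highest value was 84.2-fold above 0 h, against 6.18-fold to 11.6-fold for the other 6 genes. Since its 0 h value lay below 1 FPKM, the size of that fold rests on a low value.

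*Zic2* and *Zic5* are neighbours on chromosome 14 that are transcribed away from each other, with 9758 bases between their starts. *Zic2* (chr14:122475435-122479852, plus strand) was at 7.84, 40.4, 53.4, 58.1, 65.2, 78.1 and 48.3 FPKM at 0, 24, 36, 48, 60, 72 and 96 h. *Zic5* (chr14:122456795-122465677, minus strand) was at 4.63, 18.4, 27.8, 26.8, 31.7, 31.4 and 19.2 FPKM at 0, 24, 36, 48, 60, 72 and 96 h. Both were high from 36 to 72 h and lower at 96 h, where they held 61.8% and 60.7% of their highest values. The noncoding *2610035F20Rik*, which lies between them, was at 0.689, 4.81 and 1.74 FPKM at 0, 48 and 96 h.

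*Lin28a* (chr4:134003330-134018841, minus strand) was the most abundant of the 7 genes per length, with 30.6, 115, 166, 189, 171, 181 and 188 FPKM at 0, 24, 36, 48, 60, 72 and 96 h. From 36 h on these values lay within 1.14-fold of each other. *Lin28b* (chr10:45376620-45486395, minus strand) was lower throughout, with 1.05, 2.19, 7.48, 9.84, 12.1, 10.7 and 12.2 FPKM at 0, 24, 36, 48, 60, 72 and 96 h. Its step from 24 to 36 h was 3.42-fold and that of *Pou3f1* 2.24-fold, and these were the 2 genes called between neighbouring timepoints after 24 h. From 24 to 36 h 5.44% of all genes were called higher. None of the 7 genes was called between 36 and 48 h, 48 and 60 h, 60 and 72 h or 72 and 96 h, steps at which 4.79%, 9.24%, 5.24% and 10.1% of all genes were called in either direction.

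Markers of fibroblasts were high at 0 h, the condition that every one of these ratios uses. The 10 markers summed to 796 and 73.6 FPKM at 0 and 24 h and between 21.1 and 40.6 FPKM from 36 to 96 h, and *Col1a1*, a defining collagen gene, was at 229 and 21.0 FPKM at 0 and 24 h. None of the 10 was at 0 at 0 h. Against 0 h, 9 of the 10 were called lower at each of the 6 later timepoints, and *Thy1*, a surface glycoprotein gene, was called higher at 24, 36, 48 and 72 h, with 4.01 and 17.7 FPKM at 0 and 48 h. Their part in the 0 h values was not tested. Between 24 h and later timepoints, ratios that leave out 0 h, the level of *Pou3f1* was 2.24-fold higher at 36 h and that of *Otx2* 1.40-fold. The pluripotency markers *Pou5f1*, *Sox2* and *Nanog* were at 199, 248 and 227 FPKM at 0 h and at 25.5, 33.0 and 14.5 FPKM at 96 h. In such bulk RNA, fewer cells of a type and less RNA per cell cannot be told apart.

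Other genes of the formative phase, listed by name from general knowledge, were measured beside the 7. Of the 16 listed, 15 could be compared between 48 and 0 h, and 10 were called higher and 0 lower, with a median log2 ratio of 3.34, against 12.1% of all genes called higher. The de novo DNA methyltransferase *Dnmt3a* was at 9.71, 340 and 34.7 FPKM at 0, 36 and 96 h. The growth factor *Fgf5*, the usual marker of this state, was at 0.164, 37.3 and 12.7 FPKM at 0, 48 and 96 h. The SoxB1 factor *Sox3* was at 0.958, 28.0 and 15.9 FPKM at 0, 48 and 96 h. By 96 h, 9 of the 15 that could be compared were called higher and 4 lower, and those lower were *Foxd3*, *Tcf15*, *Etv4* and *Etv5*. At that time 16.4% of all genes were called lower, and none of the 7 regulators was.

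The 14 naive regulators were called in the opposite direction. At 24 h 9 of them were called lower and 1 higher (*Nr0b1*), against 14.3% of all genes called lower, and at 48 h all 14 were called lower, against 17.0%. Their median log2 ratio to 0 h was -1.76 at 24 h and -4.36 at 48 h. The orphan receptor *Esrrb* was at 150, 45.3 and 12.8 FPKM at 0, 24 and 48 h, and the repressor *Prdm14* was at 18.8, 1.73 and 0.0803 FPKM.

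Close relatives of the 7 genes did not share one pattern. *Grhl3*, a relative of *Grhl2*, was at 10.6, 7.05 and 1.27 FPKM at 0, 24 and 48 h, while *Grhl1* stayed between 1.60 and 4.14 FPKM over withdrawal. Of the 9 listed relatives, 3 could be compared between 48 and 0 h, of which 1 (*Grhl1*) was called higher and 2 (*Grhl3* and *Otx1*) lower, against 12.1% and 17.0% of all genes. With 1 FPKM added to both values *Grhl1* was no longer called. *Zic1* and *Zic4*, relatives of *Zic2* and *Zic5*, were at no more than 0.275 and 0.146 FPKM over withdrawal, and at 3.98 and 1.10 FPKM in –dox cells re-seeded from 96 h (0.816 and 0.377 FPKM +dox). *Crx*, *Pou3f2*, *Pou3f3* and *Pou3f4*, the other relatives of *Otx2* and *Pou3f1*, did not reach 1 FPKM in any of the 15 conditions, and *Pou3f2*, the highest of them, was at 0.410 FPKM or less.

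Genes tied to LIN28 and let-7 mostly stayed within 2-fold over withdrawal. Of the 13 listed, 0 were called higher and 3 (*Hmga2*, *Ccnd2* and *Dis3l2*) lower at 48 h, and at 96 h 0 were called higher and 1 (*Ccnd2*) lower, with a median log2 ratio to 0 h of -0.23 and 0.24. Of all genes, 12.1% were called higher and 17.0% lower at 48 h, and 16.8% and 16.4% at 96 h. The chromatin protein *Hmga2*, whose 3′ UTR holds 4 seed matches, was at 39.0, 13.98 and 25.5 FPKM at 0, 48 and 96 h. The RNA-binding *Igf2bp1*, also with 4 matches, was at 84.9, 144 and 106 FPKM, and the ubiquitin ligase *Trim71*, also with 4, was at 24.5, 31.9 and 41.7 FPKM. Over the same time *Lin28a* was called 6.18-fold and *Lin28b* 9.36-fold higher at 48 h.

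Epithelial genes bound by GRHL2 in other cells differed in direction. Of the 9 listed, 8 could be compared. At 24 h, where *Grhl2* was already 5.00-fold above 0 h, 3 were called higher and 2 lower, with a median log2 ratio of -0.07, against 8.64% and 14.3% of all genes. The 2 lower were the tight junction genes *Cldn4*, at 64.8 and 27.8 FPKM at 0 and 24 h, and *Cldn7*, at 18.5 and 6.69 FPKM. Later, 5 were called higher and 1 (*Spint1*, a protease inhibitor gene) lower at 48 h, and 5 higher and 0 lower at 96 h. Of all genes, 12.1% and 17.0% were called higher and lower at 48 h, and 16.8% and 16.4% at 96 h. A further tight junction gene, *Cldn6*, was at 11.8, 95.0 and 176 FPKM at 0, 36 and 96 h. The splicing regulator *Esrp1* was at 2.45, 38.8 and 36.5 FPKM at these times, and the trafficking gene *Rab25* at 3.91, 14.4 and 34.1 FPKM. E-cadherin, *Cdh1*, was at 114, 159 and 113 FPKM and was not called at 36 or 96 h.

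The second comparison asked how OSKM induction changed the genes in cells re-seeded from each timepoint. Of the 7 genes, 1 was called lower with dox after 0 h and 1 after 24 h, against 5.61% and 3.40% of all genes. After 48 h, 1 was called lower and 1 higher, against 6.46% and 6.56%. After 96 h, 0 were called, against 17.7% in either direction. These calls were all of *Otx2* or *Pou3f1*. *Otx2* was the only one of the 7 whose call went in both directions, lower with dox after 0 h of withdrawal and higher after 48 h. The other 5 genes were within 2-fold between –dox and +dox at all 4 starting times.

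**Figure D2:**
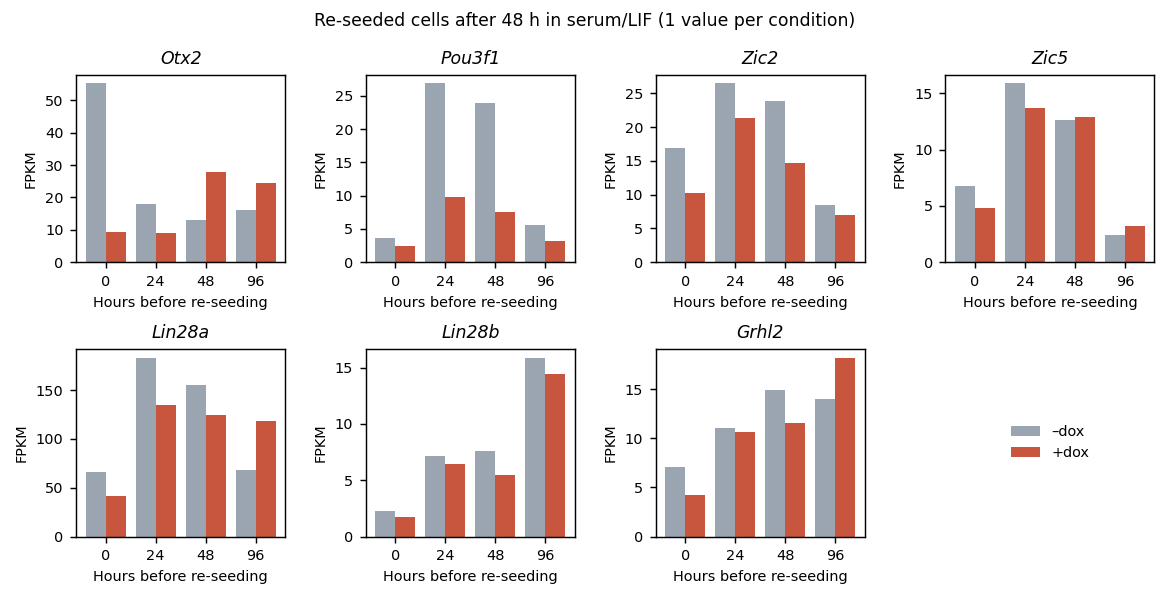
FPKM (vertical axis, from 0) of each gene in cells re-seeded for 48 h in serum/LIF after 0, 24, 48 or 96 h of withdrawal, without (grey) and with dox (red), with 1 value per condition. *Otx2* is 55.2 FPKM without and 9.26 FPKM with dox after 0 h, and 13.1 and 27.7 FPKM after 48 h. *Pou3f1* is lower with dox at all 4 starting times.

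*Otx2* was at 55.2 FPKM –dox and 9.26 FPKM +dox after 0 h, at 17.9 and 9.01 FPKM after 24 h, at 13.1 and 27.7 FPKM after 48 h and at 16.1 and 24.5 FPKM after 96 h. Without dox it was highest in cells re-seeded from 0 h, and with dox in cells re-seeded from 48 h. The log2 ratios of +dox to –dox were -2.58, -0.99, 1.08 and 0.60, of which the first and the third were called. At 24 h the ratio of 1.98-fold lay just under the limit.

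*Pou3f1* was at 3.64 FPKM –dox and 2.40 FPKM +dox after 0 h, at 26.8 and 9.79 FPKM after 24 h, at 23.9 and 7.61 FPKM after 48 h and at 5.64 and 3.26 FPKM after 96 h. It was lower with dox at each starting time, and was called at 24 h (log2 ratio -1.46, 2.74-fold) and 48 h (-1.65, 3.14-fold). Among all genes, 5.61% were called lower with dox after 0 h and 3.40% after 24 h, and after 48 h 6.46% were called lower and 6.56% higher. After 96 h none of the 7 genes was called, where 17.7% of all genes were called in either direction.

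*Zic2* was at 17.0 FPKM –dox and 10.2 FPKM +dox after 0 h, at 26.5 and 21.4 FPKM after 24 h, at 23.8 and 14.7 FPKM after 48 h and at 8.49 and 7.04 FPKM after 96 h. *Zic5* was at 6.76 and 4.80 FPKM, 15.9 and 13.7 FPKM, 12.6 and 12.9 FPKM, and 2.46 and 3.21 FPKM in the same order. Both were highest in cells re-seeded from 24 h and lowest in those re-seeded from 96 h, with and without dox. The largest ratio between –dox and +dox was 1.67-fold for *Zic2* and 1.41-fold for *Zic5*, both after 0 h.

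*Lin28a* was at 66.1 FPKM –dox and 41.8 FPKM +dox after 0 h, at 183 and 134 FPKM after 24 h, at 155 and 124 FPKM after 48 h and at 67.9 and 118 FPKM after 96 h. Its +dox value was the lower one except after 96 h, where it was 1.74-fold higher. *Lin28b* was at 2.29 and 1.75 FPKM, 7.18 and 6.46 FPKM, 7.58 and 5.46 FPKM, and 15.9 and 14.4 FPKM in the same order, with the 2 highest of its 15 values in cells re-seeded from 96 h. *Grhl2* was at 7.04 and 4.25 FPKM, 11.1 and 10.7 FPKM, 14.9 and 11.6 FPKM, and 14.01 and 18.2 FPKM. After 0 h of withdrawal all 7 genes were lower with dox, with a median log2 ratio of -0.66 against 0.05 over all genes. Only *Otx2* was called, and the others were lower by at most 1.67-fold. The share of all genes that were lower by any amount was not computed.

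The related lists were counted in the same comparison. After 48 h, 10 of 13 naive regulators were called higher with dox and 0 lower, with a median log2 ratio of 1.64, against 6.56% of all genes called higher, and *Esrrb* was at 8.31 FPKM –dox and 56.2 FPKM +dox. Of the 16 formative partners, 4 were called higher and 4 lower, against 6.56% and 6.46% of all genes. The 4 lower were *Fgf5* (17.2 FPKM –dox and 0.381 FPKM +dox), *Sox3* (10.5 and 2.31 FPKM), *Sall2* (9.97 and 1.69 FPKM) and *Wnt8a* (3.88 and 0.0862 FPKM). The FGF target genes *Etv4* and *Etv5*, with *Fgf15* and *Rbpj*, were the 4 called higher. By direction *Pou3f1* stood with *Fgf5* and *Sox3*, and *Otx2* with *Etv4* and *Rbpj*. The deposited values of *Pou5f1* after 48 h were 72.6 FPKM –dox and 204 FPKM +dox, and the table does not separate the transgene from the endogenous gene. All 3 mesendoderm markers that could be compared were called lower with dox after 48 h, and the 8 listed summed to 11.3 FPKM –dox and 2.94 FPKM +dox, with *T*, the mesoderm factor Brachyury, at 5.90 and 0.390 FPKM. Of 6 fibroblast markers that could be compared, 4 were called lower and 1 higher, with sums of 16.6 and 15.8 FPKM. The part of either list in the values of the 7 genes was not tested.

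The third comparison set the re-seeded –dox cells against the withdrawal condition they came from. Between these conditions the medium, the re-seeding and 48 h of further time changed together, and their parts cannot be told apart. Cells re-seeded from 0 h had more of 6 of the 7 genes than the 0 h cells, with log2 ratios of 2.14 for *Pou3f1*, 1.73 for *Otx2*, 1.32 for *Grhl2*, 1.12 for *Lin28b*, 1.11 for *Zic2* and 1.11 for *Lin28a*, against 12.0% of all genes called higher. *Zic5* was 1.46-fold higher and was not called. The 10 fibroblast markers summed to 796 FPKM in the source and 6.04 FPKM in these re-seeded cells, with *Lum* and *Twist2* at 0, and their part in the ratios was not tested.

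**Figure D3:**
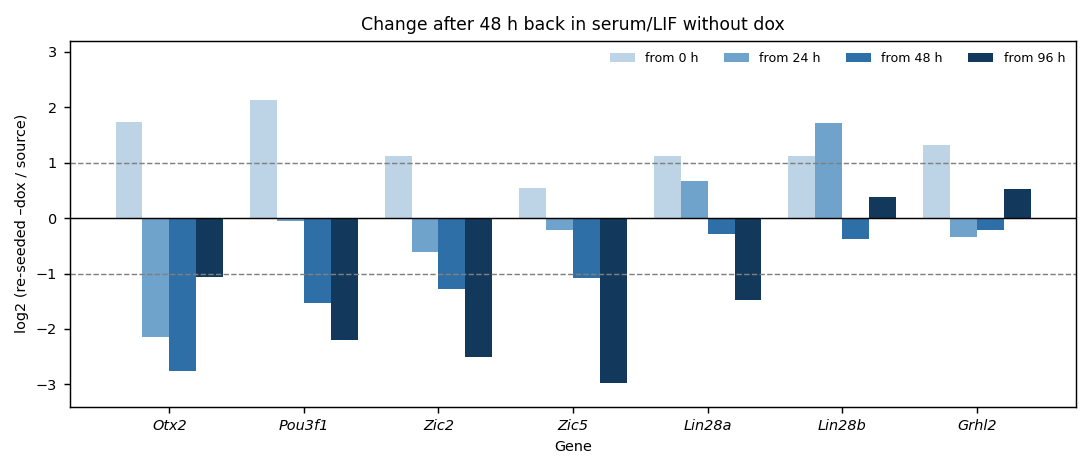
Log2 ratio of the FPKM after 48 h in serum/LIF without dox to the FPKM in the withdrawal condition the cells came from (vertical axis), for each gene, in cells withdrawn for 0, 24, 48 or 96 h (light to dark bars). Dashed lines mark 2-fold. *Otx2* goes from 1.73 for cells from 0 h to -2.15 and -2.76 for cells from 24 and 48 h, while *Grhl2* is called only for cells from 0 h.

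From 24 h, *Otx2* was 4.44-fold lower and *Lin28b* 3.29-fold higher than in the source, and the other 5 genes were within 2-fold, where 10.6% of all genes were called lower and 14.9% higher. From 48 h, the 4 genes *Otx2* (6.75-fold), *Pou3f1* (2.91-fold), *Zic2* (2.44-fold) and *Zic5* (2.12-fold) were called lower, against 11.5% of all genes. In the same comparison all 3 mesendoderm markers that could be compared were called higher, with *T* at 0.0653 FPKM in the source and 5.90 FPKM after re-seeding and sums of 2.60 and 11.3 FPKM. Of 7 fibroblast markers 4 were called lower and 1 higher, with sums of 40.6 and 16.6 FPKM, and the part of either list was not tested. From 96 h, *Zic5* (7.82-fold), *Zic2* (5.69-fold), *Pou3f1* (4.59-fold), *Lin28a* (2.77-fold) and *Otx2* (2.09-fold) were called lower, against 11.2%. *Grhl2* and *Lin28b* were not called from 48 or 96 h. The median log2 ratio of the 7 genes was 1.12 from 0 h, -0.22 from 24 h, -1.09 from 48 h and -1.47 from 96 h, while over all genes it stayed between -0.05 and 0.01.

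The cells re-seeded from 24 and 48 h had the same total time since withdrawal as the cells left in N2B27 for 72 and 96 h. The medium and the re-seeding still changed together here. Against 72 h of withdrawal, *Zic2* was 2.95-fold and *Otx2* 2.68-fold lower after re-seeding, and *Zic5*, at 1.98-fold lower, just missed the limit. Against 96 h, *Otx2* was 2.57-fold and *Zic2* 2.03-fold lower. Of all genes, 4.89% and 6.51% were called lower in these comparisons. *Lin28a* was within 1.21-fold and *Lin28b* within 1.61-fold of the continued withdrawal in both, and *Pou3f1* within 1.64-fold. The comparisons share the re-seeded values with those above.

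Markers of pluripotency and of other cell types were also measured in the cells re-seeded from 96 h. *Pou5f1* was at 2.63 FPKM –dox and 9.95 FPKM +dox. The 10 fibroblast markers summed to 143 FPKM –dox and 24.1 FPKM +dox, with 5 of the 10 at 1 FPKM or more in each. Most of the –dox sum was *Col1a2* (86.0 FPKM –dox and 13.2 FPKM +dox) and *Col1a1* (33.2 and 3.47 FPKM). Of 7 that could be compared between –dox and 96 h of withdrawal, 5 were called higher and 2 (*Dcn* and *Thy1*) lower. Of 13022 genes, 1612 were called higher and 1459 lower there. The –dox sum lay above, and the +dox sum within, the 21.1 to 40.6 FPKM seen from 36 to 96 h of withdrawal. The mesendoderm markers summed to 10.3 FPKM –dox and 2.97 FPKM +dox, with *Mesp1* at 0 in both. *Sox17* (6.84 FPKM –dox and 1.01 FPKM +dox) and *Foxa2* (2.19 FPKM –dox) made up most of this –dox sum. Of 3 that could be compared between –dox and 96 h of withdrawal, 2 (*Sox17* and *Foxa2*) were called higher and 1 (*Tbx6*) lower. The neurectoderm markers summed to 59.0 and 24.5 FPKM, with *Sox1* at 0.893 and 1.10 FPKM. Of the –dox neurectoderm sum 31.7 FPKM was *Tubb3*, and this sum was 52.7 and 50.4 FPKM at 72 and 96 h of withdrawal. Their part in the levels of the 7 genes there was not tested. Of 14 formative partners that could be compared with 96 h of withdrawal, 8 were called lower without dox and 1 higher, against 11.2% of all genes called lower.

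**Figure D4:**
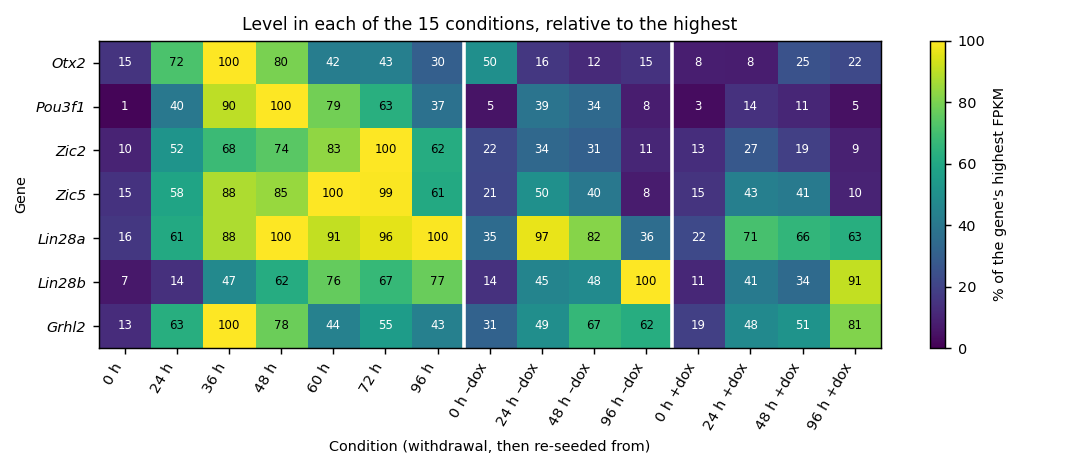
Level of each gene (rows) in each of the 15 conditions (columns), as a percentage of the gene's highest FPKM, printed in each cell. White lines separate the withdrawal conditions, the re-seeded –dox conditions and the re-seeded +dox conditions. *Otx2*, *Pou3f1*, *Zic2*, *Zic5*, *Lin28a* and *Grhl2* have their highest value during withdrawal, and *Lin28b* has it in –dox cells re-seeded from 96 h.

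Over all 15 conditions the order of levels was mostly without gaps. The 15 values of *Otx2* ran from 9.01 FPKM in +dox cells from 24 h to 111 FPKM at 36 h of withdrawal with no neighbours in the order as much as 1.5-fold apart. *Zic2* had 1 such gap, of 1.53-fold, between the 6 withdrawal conditions from 24 h on and all others. *Zic5* had 1, of 1.87-fold, below the cells re-seeded from 48 h. *Pou3f1* had 4 gaps, of which the widest were 2.90-fold between 0 h of withdrawal and the next value, and 2.44-fold between the –dox cells from 48 h and the +dox cells from 24 h. *Lin28b* had gaps of 2.39-fold and 1.67-fold, and the 3 conditions of 0 h cells and 24 h of withdrawal lay below the wider one. *Lin28a* had gaps of 1.69-fold and 1.58-fold and *Grhl2* of 1.65-fold and 1.51-fold, in both cases at the low end of the order, where the 0 h cells stood (with the –dox cells from 96 h for *Lin28a*). Without replicate values it is not known whether smaller gaps exceed the spread between samples.

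The 7 genes were compared with each other by Pearson's r of log2(FPKM + 1), as a description. Over the 15 conditions *Zic2* and *Zic5* were the closest pair (r = 0.958), followed by *Pou3f1* with *Zic2* (0.930) and with *Zic5* (0.900). *Lin28b* was least like *Otx2* (0.113) and *Zic5* (0.233). *Otx2* and *Grhl2* had r = 0.961 over the 7 withdrawal timepoints and 0.462 over all 15 conditions. The 15 conditions share cells, media and the re-seeding step, and both replicates of a condition are in 1 value.

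**Figure D5:**
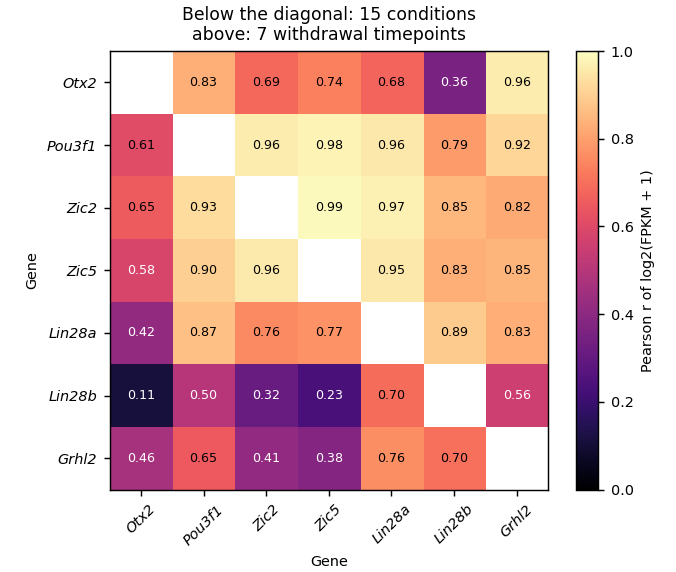
Pearson's r of log2(FPKM + 1) between each pair of the 7 genes, over all 15 conditions below the diagonal and over the 7 withdrawal timepoints above it. *Zic2* and *Zic5* have 0.958 and 0.989, and *Otx2* and *Lin28b* have 0.113 and 0.356.

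Among 9066 other genes that reached 10 FPKM in some condition, those most like *Pou3f1* over the 15 conditions were the chromatin remodeller *Smarca1* (r = 0.962), *Sox3* (0.959) and *Vrtn* (0.957). Those most like *Zic2* were *Sox3* (0.964), *Zic5* (0.958) and the thioredoxin reductase *Txnrd1* (0.942), and those most like *Zic5* were *Txnrd1* (0.967), *Tpst1* (0.963) and *Ldlrad3* (0.962). *Lin28a* was most like the serum response factor *Srf* (0.948), *Xpo7* (0.945) and *Ramp3* (0.938), and *Lin28b* most like *Speg* (0.967), *Tmem54* (0.957) and *Plxnb1* (0.956). *Otx2* and *Grhl2* had no partner as close, with *Ythdc1*, which reads methylated RNA (0.879), *Ing1* (0.869) and *Ahdc1* (0.865) for *Otx2* and with *Jade2* (0.899), *Timm21* (0.888) and *Acsl5* (0.884) for *Grhl2*. *Ythdc1*, at 37.5 and 41.4 FPKM at 0 and 48 h, was nearly flat over withdrawal, and r takes no account of the size of a change.

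Of the genes that overlap the 7 on the other strand, those in the RNA-seq table stayed below the gene they overlap in every condition. *Otx2os1*, which overlaps *Otx2*, was at no more than 0.510 FPKM. *Gm13061*, which overlaps *Lin28a*, reached 3.29 FPKM at 72 h. *Gm16136*, which overlaps the start of *Grhl2* by 274 bases, was listed at 0 FPKM at 0 h. It was highest, at 10.0 FPKM, in –dox cells re-seeded from 96 h, where *Grhl2* was at 14.01 FPKM. Whether reads were counted by strand is not given in the sources used here, so reads in the shared bases cannot be assigned to a gene of the pair.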

How the data were processed

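Polyadenylated RNA of 30 samples was sequenced. Per the paper's methods and the submitters' processing notes, the authors mapped reads to mm10 with TopHat 2.0.14, quantified Gencode transcripts with Cufflinks 2.2.1 and combined the 2 replicates of each condition with Cuffdiff. The authors deposited these values as FPKM for 22477 genes and 15 conditions. The table holds no read counts or replicate values, so the depth is unknown and no test, SD or p was computed; the library normalization is not given in the sources used here. It also holds 5 columns of the authors' calls, which were not used. Values summed to between 603278 and 832607 FPKM per condition. As a rough guide to depth, 1 FPKM of a 2 kb gene stood at between 29.3 and 46.9 of the smallest steps between low values in most conditions, and at between 85.8 and 99.7 in cells re-seeded from 0 and 24 h. Such steps are not reads.

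Plain ratios, 2-fold calls with a higher value of at least 1 FPKM, and Pearson's r were computed with Python 3.11.15, numpy 2.4.6 and pandas 2.3.3, plotted with matplotlib 3.10.9 and tested on simulated data. Named were the 7 genes, genes of 9 lists written from general knowledge, the 3 genes most like each of the 7 and overlapping genes. 1 further item is not reported here. The 7 genes and the lists were chosen with earlier results of these data known. Sequences and start sites came from RefSeq (GRCm38.p6), gene positions and 3′ UTRs from Gencode M21. Alternatives covered pseudocounts, the FPKM minimum, the fold, the scaling of conditions and the likeness measure.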

Additional observations from a re-analysis of the deposited data

Results flagged for a closer look

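*Otx2* was called in opposite directions after OSKM induction at different starting times. The log2 ratio of +dox to –dox was -2.58 in cells re-seeded from 0 h (9.26 against 55.2 FPKM) and 1.08 in cells re-seeded from 48 h (27.7 against 13.1 FPKM). The difference between these ratios was not tested, since the table has 1 value per condition. The second ratio was 0.99 when conditions were scaled to equal FPKM sums, just under the 2-fold limit, and the first stayed past it.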

How the results depend on the processing

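Leaving out each replicate in turn was not run, for want of replicate columns. No paired analysis was possible because the columns carry no replicate numbers.

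Of the 147 ratios of the 7 genes (21 comparisons each), none turned direction past the limit under the 8 alternatives, but none could have. An added FPKM, a minimum or another fold cannot change the direction of a ratio. The scaling factors lay between 0.990 and 1.03 for median ratios and between 0.834 and 1.15 for equal sums. Those are too close together to turn a 2-fold ratio. With 1 FPKM added 4 ratios lost their call, with 0.1 FPKM 1 (*Lin28b* at 24 h, log2 ratio 0.99), with median-ratio scaling 2 and with equal FPKM sums 1, while 2 gained one. Requiring 1 FPKM in both conditions removed 7 calls, all of *Pou3f1* against 0 h, because its value there is under 1 FPKM. *Otx2* at 96 h against 0 h was at 0.98 with 1 FPKM added and 0.99 with median-ratio scaling. With no minimum no call changed. Equal FPKM sums gave 2 genes called after dox at 24 h, not 1, and 1 at 48 h, not 2. Against 96 h of withdrawal, cells from 48 h had 1 called gene, not 2, with 1 FPKM added or median-ratio scaling.

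At 1.5-fold the calls between neighbouring timepoints became 4 (36 h), 2 (60 h) and 3 (96 h), those after dox 5, 2 and 3 from 0, 24 and 96 h, those on return from 24 h 4, and those against 72 and 96 h 4 and 5. At 4-fold 4 genes were called at 24 h against 0 h, 0 at 36 h against 24 h, 0 after dox at 24 and 48 h, 1, 1, 1 and 3 on return from 0, 24, 48 and 96 h, and 0 against 72 or 96 h. The share of all genes called was not computed under the alternatives, so these counts have no background beside them. Counts that stayed within 1.5 times are not listed here, although some of them changed. At 4-fold, *Otx2* was not called against 0 h at 60, 72 or 96 h, nor *Grhl2* at 60 or 96 h. At 1.5-fold, *Zic2* (1.62-fold) was also called after dox at 48 h. With equal FPKM sums the highest value of *Zic5* and of *Lin28a* was at 72 h. Of the 21 genes named as most alike, 1 was named over the 7 withdrawal timepoints alone.

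The counts of formative partners and naive regulators at 48 and 96 h against 0 h, and of epithelial genes called higher there, stayed within 1.5 times under the 8 alternatives. Relatives called higher at 48 h were 0 with 1 FPKM added or at 4-fold and 3 with no minimum, not 1, and those called lower were 6 with no minimum and 1 with 1 FPKM added, 1 FPKM in both conditions, equal FPKM sums or 4-fold, not 2. The let-7 genes called higher at 96 h were 3 with equal FPKM sums, not 0. After dox at 48 h, naive regulators called higher were 4 at 4-fold, not 10, and formative partners called lower were 2 with 1 FPKM in both conditions, not 4.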

Other observations

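The listed neurectoderm markers differed in when they were highest. Over withdrawal the factor *Sox1* was at 1.02, 0.464 and 13.3 FPKM at 0, 48 and 96 h, and *Pax6*, another neural factor, was at 0.263, 0.946 and 4.41 FPKM. Of the 12 listed, 7 could be compared between 96 and 0 h, and 6 were called higher and 0 lower, against 16.8% of all genes called higher. The proneural factor *Neurod1* was highest at 48 h, at 5.07 FPKM, and the intermediate filament gene *Nes* at 72 h, at 23.0 FPKM. The neuronal tubulin gene *Tubb3* was highest at 24 h, with 14.7, 34.4, 22.5 and 10.4 FPKM at 0, 24, 48 and 96 h.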
